A study of Mus musculus with 9 samples.

Results

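The genes of the T cell receptor complex and the T cell lineage were followed in mouse brain 2 days after injection of a baculoviral vector. The set was listed by gene name, with earlier results of these data known: Cd3d, Cd3e, Cd3g, Cd4, Cd8a, Cd8b1, Cd2, Lck, Cd5 and Zap70. Every probe set whose only gene symbol is one of these was taken, which gave 16 of the 45101 probe sets on the array, for 9 of the 10 genes. No probe set carries the symbol Lck alone in the annotation used, so Lck was not analysed here. Cd8a has 5 probe sets, Zap70 has 3, Cd4 has 2 and the other genes have 1 each.

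All 9 mice were adult male immunocompetent BALB/c mice with an injection into the striatum. HS mice received the vector BV-HSVtk purified by high-speed centrifugation. MC+HS mice received BV-HSVtk purified by membrane chromatography and high-speed centrifugation. Both kinds of vector were given as 100000000 viral particles in 10 µL on each side. Mock mice received Sf9 insect cell medium without baculovirus that had gone through the MC+HS purification, so HS and mock differ in purification as well as in vector. Each group had 3 mice, labelled as biological replicates and not pooled, with 1 array per mouse (n = 3 per group, or 2 for HS where HS replicate 1 was omitted).

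A T cell recognises antigen through a receptor whose variable chains carry no signal of their own. The signal passes through the CD3 chains gamma, delta and epsilon and the zeta chain encoded by Cd247, whose cytoplasmic tails are phosphorylated by the kinase Lck and then bound by the kinase ZAP-70. The coreceptors CD4 and CD8 bind MHC class II and class I and mark the helper and cytotoxic lineages, while CD2 and CD5 are surface proteins that adjust adhesion and signal strength. The healthy brain holds few T cells, and natural killer (NK) cells share some of these genes, among them Cd2, Cd247 and Zap70. Cd3d, Cd3e and Cd3g are neighbours in the genome, as are Cd8a and Cd8b1.

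The arrays differed in ways that bear on dim genes. Background was set on each array at the 95th percentile of 83 probe sets for olfactory, vomeronasal and taste receptors, genes of chemosensory cells. It lay at 257 intensity units on HS replicate 1 and between 88.3 and 129.8 on the other arrays. HS replicate 1 stood apart: 33.7% of all probe sets exceeded background on it, against 55.4% to 63.8% elsewhere, and its median correlation with the other arrays was 0.805, against 0.972 to 0.982. Results that rest on this array are given with and without it. Centring on the array median moved HS replicate 3 by 0.66 on the log2 scale, the largest shift. Of 14 brain tissue markers on the array (neurons, astrocytes, oligodendrocytes and microglia), 12 were above background on all 3 HS arrays, 14 on all 3 MC+HS arrays and 14 on all 3 mock arrays. Cx3cr1 and Mog missed this in HS, each below background on HS replicate 1 alone. The signals of HS replicate 1 also spanned a narrower range. The SD of its log2 values over all probe sets was 1.54, against 2.17 to 2.39 on the other arrays.

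Most T cell genes were not above background in any group. A gene was counted as above background in a group where 1 of its probe sets exceeded background on all 3 arrays. That held for 2 of 9 genes in HS, 2 in MC+HS and 3 in mock, and only Cd4 and Zap70 met it in all 3 groups. Cd8a met it in mock alone. Cd3e exceeded background on 5 of 9 arrays and met the rule in no group. Cd3d, Cd3g, Cd8b1, Cd2 and Cd5 exceeded it on none of the 9 arrays. Of all 18193 named genes, 47.9% were above background in HS, 66.7% in MC+HS and 65.9% in mock by the same rule. The rule favours genes with several probe sets, as Cd4, Cd8a and Zap70 have. Of the 9183 named genes with 1 probe set, 31.4% met it in HS, 49.8% in MC+HS and 48.9% in mock. No member with 1 probe set did. With HS replicate 1 left out, the HS count was 4 of 9, as Cd3e and Cd8a then joined Cd4 and Zap70, while the share of all named genes was 72.0% on those 2 arrays. In this bulk tissue, fewer T cells and less RNA per T cell cannot be told apart, and a signal below background is not shown to be absent.

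**Figure D1:**
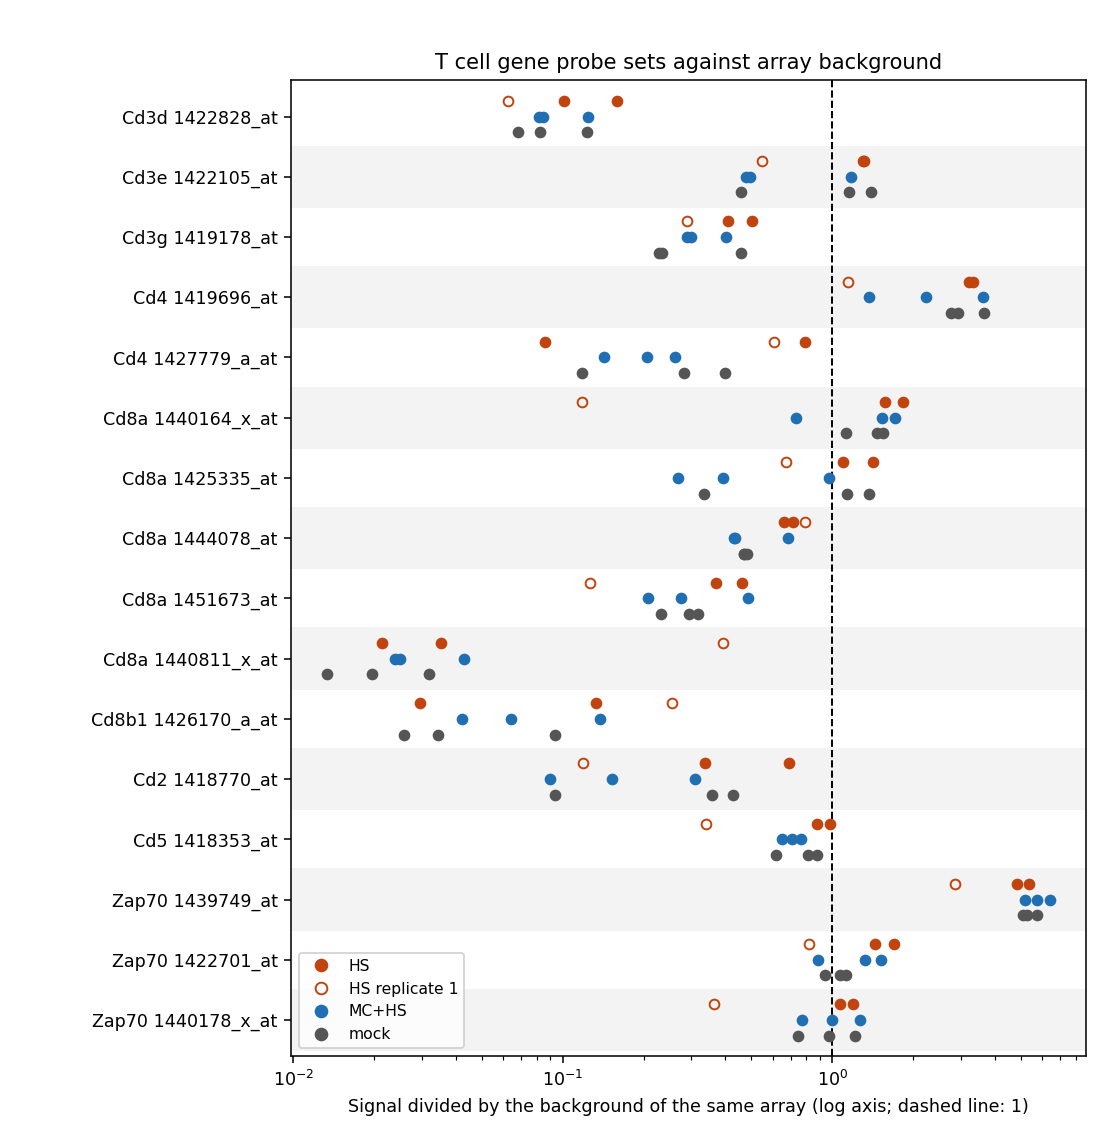
Signal of each of the 16 probe sets divided by the background of the same array (log axis), with 1 point per array and the HS, MC+HS and mock arrays from top to bottom within each row. The open circle is HS replicate 1 and the dashed line marks a signal equal to background. All points of Cd4 1419696_at and Zap70 1439749_at lie right of the line, and all points of Cd3d, Cd3g, Cd8b1, Cd2 and Cd5 lie left of it.

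Of the CD3 chains, which couple the receptor to signalling, the delta and gamma chain genes were dim throughout. The Cd3d probe set (1422828_at) gave centred signals of 16.1, 6.1 and 7.3 in HS, 9.8, 7.0 and 15.6 in MC+HS, and 9.0, 10.2 and 10.6 in mock (HS, MC+HS and mock replicates 1 to 3 in order, here and below). On the scale of the deposited signals it reached between 0.0627 and 0.159 times the background of its array. For Cd3g (1419178_at) the centred signals were 74.1, 37.8 and 27.8 in HS, 31.0, 28.4 and 50.4 in MC+HS, and 26.7, 41.5 and 28.5 in mock. The groups overlap for both genes, and the 1 high Cd3g value comes from HS replicate 1, the array with the raised background.

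The epsilon chain gene Cd3e (1422105_at), needed to assemble the complex, lay near background and split within groups. It gave 141, 100.4 and 102 units of centred signal in HS, 48.9, 120.0 and 62.1 in MC+HS, and 129, 128 and 54.8 in mock. Means were 114 ± 23 in HS, 77.0 ± 37.8 in MC+HS and 104 ± 43 in mock (SD). The spread within MC+HS and within mock is wider than the distance between any pair of group means. The log2 difference from mock was 0.18 ± 0.36 in HS (limma adjusted p = 0.810) and -0.37 ± 0.36 in MC+HS (adjusted p = 0.9999).

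The coreceptor gene Cd4 was above background on all 9 arrays with 1419696_at and on none with 1427779_a_at. Its brighter probe set gave centred signals of 294, 259.5 and 259.4 in HS, 362, 228 and 171 in MC+HS, and 408, 271 and 325 in mock. Group means were 271 ± 20 in HS, 253 ± 98 in MC+HS and 335 ± 69 in mock (SD). Vector arrays therefore sat lower on average, but MC+HS replicate 1 exceeded both lower mock arrays. HS against mock came to -0.27 ± 0.25 (log2; limma adjusted p = 0.645), a 0.828-fold level with a 95% interval of 0.556 to 1.23. MC+HS against mock came to -0.42 ± 0.25 (limma adjusted p = 0.9999), or 0.746-fold with an interval of 0.501 to 1.11. Without HS replicate 1, both HS arrays lay below all 3 mock arrays, at -0.33 ± 0.26 (limma adjusted p = 0.628).

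Cd8a, which encodes the alpha chain of the cytotoxic lineage coreceptor, had 5 probe sets that did not move together. With 1440164_x_at the centred signal was 30.3, 142 and 123 in HS, 74.5, 175 and 191 in MC+HS, and 126, 135 and 182 in mock. With 1425335_at it was 172, 84.5 and 111 in HS, 40.3, 98.9 and 33.6 in MC+HS, and 154, 30.0 and 135 in mock. HS replicate 1 was the lowest of the 9 arrays with the first of these and the highest with the second, and the groups overlap in both.

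Against mock, HS differed by -0.69 ± 0.48 with 1440164_x_at and by 0.34 ± 0.53 with 1425335_at (log2; limma adjusted p = 0.635 and 0.756). Without HS replicate 1 those differences were -0.13 ± 0.32 and 0.10 ± 0.53 (adjusted p = 0.902 and 0.958). MC+HS differed from mock by -0.08 ± 0.48 and -0.62 ± 0.53 with the same probe sets. The other Cd8a probe sets, 1444078_at, 1451673_at and 1440811_x_at, were below background on all 9 arrays. The last of them had a deposited signal of 100.7 on HS replicate 1 and between 1.497 and 5.30 on the other 8 arrays.

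Cd8b1, the gene of the CD8 beta chain found on conventional cytotoxic T cells, showed the same array standing out. Its deposited signal (1426170_a_at) was 65.2, 11.7 and 3.85 in HS, 5.84, 15.6 and 5.24 in MC+HS, and 3.51, 9.49 and 2.89 in mock. HS replicate 1 is the highest value and the other 8 arrays overlap between groups. On no array did Cd8b1 exceed 0.254 times background.

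Cd2, an adhesion receptor of T and NK cells, and Cd5, a receptor that dampens T cell receptor signalling, were also below background. Cd2 (1418770_at) gave centred signals of 30.6, 52.3 and 22.0 in HS, 32.0, 14.3 and 11.4 in MC+HS, and 41.3, 38.8 and 11.9 in mock. Cd5 (1418353_at) gave 87.5, 75.3 and 66.5 in HS, 66.2, 71.6 and 96.0 in MC+HS, and 70.1, 74.3 and 104 in mock. The groups overlap for both genes. Cd5 had the steadier signal, with group means of 76.5 ± 10.6 in HS, 77.9 ± 15.9 in MC+HS and 82.8 ± 18.5 in mock (SD).

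Zap70, the kinase that docks on phosphorylated CD3 and zeta chains, was above background on all 9 arrays with 1439749_at, for which the annotation gives no accession. Centred signals were 731, 380.1 and 438 in HS, 640.4, 593 and 646 in MC+HS, and 566, 492 and 681 in mock. HS replicate 1 was the highest array and the other HS arrays were the lowest of all 9, and the group means were 516 ± 188 in HS, 627 ± 29 in MC+HS and 580 ± 95 in mock (SD). HS differed from mock by -0.21 ± 0.25 (log2; limma adjusted p = 0.700) and MC+HS from mock by 0.12 ± 0.25 (adjusted p = 0.9999). Without HS replicate 1, HS lay at 0.718 times mock with a 95% interval of 0.579 to 0.890 (-0.48 ± 0.14), which did not pass (limma adjusted p = 0.119). MC+HS against HS then came to 0.60 ± 0.14, 1.51-fold with an interval of 1.22 to 1.88 (limma adjusted p = 0.335).

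The other Zap70 probe sets were above background on fewer arrays. With 1422701_at, above background on 6 of 9 arrays, the centred signal was 210.1, 111 and 134 in HS, 152, 136 and 111 in MC+HS, and 119.8, 103 and 112 in mock. HS differed from mock by 0.35 ± 0.23 and MC+HS by 0.21 ± 0.23 (log2; limma adjusted p = 0.635 and 0.9999), with overlapping groups. With 1440178_x_at, above background on 4 arrays, it was 93.3, 82.0 and 92.3 in HS, 127, 101.2 and 96.3 in MC+HS, and 109, 112 and 89.1 in mock. All 3 MC+HS arrays exceeded all 3 HS arrays there, by 0.23 ± 0.18 (adjusted p = 0.728). Without HS replicate 1, HS differed from mock by -0.21 ± 0.20 with 1440178_x_at and by 0.11 ± 0.19 with 1422701_at (limma adjusted p = 0.706 and 0.842), against -0.48 ± 0.14 with 1439749_at.

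**Figure D2:**
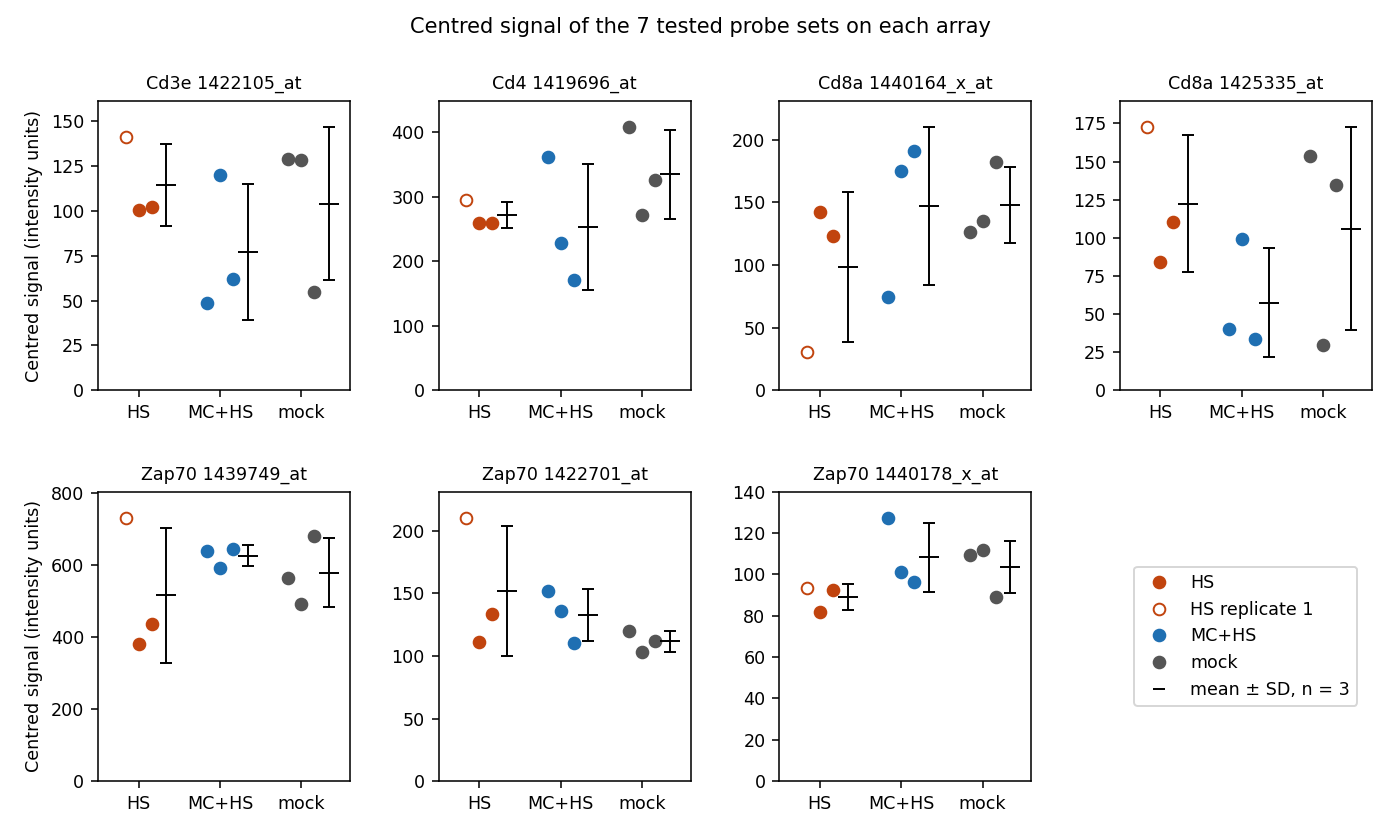
Centred signal in intensity units of the 7 probe sets that passed the filter on dim probe sets, with 1 point per array, grouped as HS, MC+HS and mock, and the mean ± SD of 3 arrays beside each group. The open circle is HS replicate 1, which is the lowest point for Cd8a 1440164_x_at (30.3) and the highest for Zap70 1439749_at (731).

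No T cell probe set differed between groups after adjustment. The filter on dim probe sets passed 7 of the 16, from Cd3e, Cd4, Cd8a and Zap70. For HS against mock, 0 of 7 were called by limma (smallest adjusted p = 0.635), where 0.775% of all 28257 probe sets tested were called. Before adjustment, 0 of 7 had a limma p under 0.05 in any of the 4 comparisons, where 6.67% of all did in HS against mock, 4.89% in MC+HS against mock, 3% in MC+HS against HS and 5.9% with both vectors against mock. For MC+HS against mock the count was also 0 of 7, where 0.58% of all were called. MC+HS against HS, the comparison of the 2 purifications, gave 0 of 7, where 0% were called. With both vectors pooled against mock, 0 of 7 passed, where 1.04% of all did. The comparisons with mock share the mock arrays.

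With HS replicate 1 left out, again 0 of 7 passed in each comparison, where 3.32%, 3.34%, 0.00357% and 4.35% of 27973 probe sets were called in the same order. Before adjustment, 1 of 7 (Zap70 1439749_at) had a limma p under 0.05 when HS was set against mock or MC+HS against HS, and 0 of 7 in the other comparisons. Of all probe sets, 14.2% did in HS against mock, 14.2% in MC+HS against mock, 7.65% in MC+HS against HS and 15.5% with both vectors. In HS against mock without that array, 2 of 7 lay wholly below mock (Cd4 1419696_at and Zap70 1439749_at), where 13.5% of all probe sets did. In MC+HS against HS with all arrays, 1 of 7 lay wholly higher in MC+HS, where 5.14% of all did (2 of 7 and 7.52% without HS replicate 1).

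The 9 probe sets that failed the filter were examined in the same fit without it. None of all 16 passed in any comparison (smallest limma adjusted p = 0.749), where 0.366%, 0.244%, 0% and 0.571% of 45037 probe sets were called in the order above. Before adjustment 0 of 16 had a limma p under 0.05, where 5.55%, 3.66%, 2.92% and 4.58% of all did. The median log2 difference over the 16 was 0.17 for HS against mock, beside -0.10 over all probe sets, and 0.05 for MC+HS against mock, beside -0.02. Without HS replicate 1 the HS median of the 16 was -0.15, beside -0.04 over all. The median over the T cell probe sets thus changed sign with 1 array.

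The precision sets what could have been seen. Over the 7 tested probe sets, the 95% interval of a log2 difference reached a median of 0.57 to either side in HS against mock, and 0.60 over all probe sets. Without HS replicate 1 these medians were 0.56 and 0.32, so the T cell probe sets were then less precise than most. With all arrays, the interval was narrower than 0.57 for Zap70 1440178_x_at (HS at 0.668 to 1.17 times mock) and wider for Cd8a 1425335_at (0.552 to 2.91 times). For Cd3e, the interval allowed HS between 0.644 and 1.99 times mock, and MC+HS between 0.440 and 1.36 times. Changes within these intervals, which are not adjusted for the number of probe sets tested, are not excluded with 3 arrays per group. The adjusted p values do not show that the groups had equal levels.

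**Figure D3:**
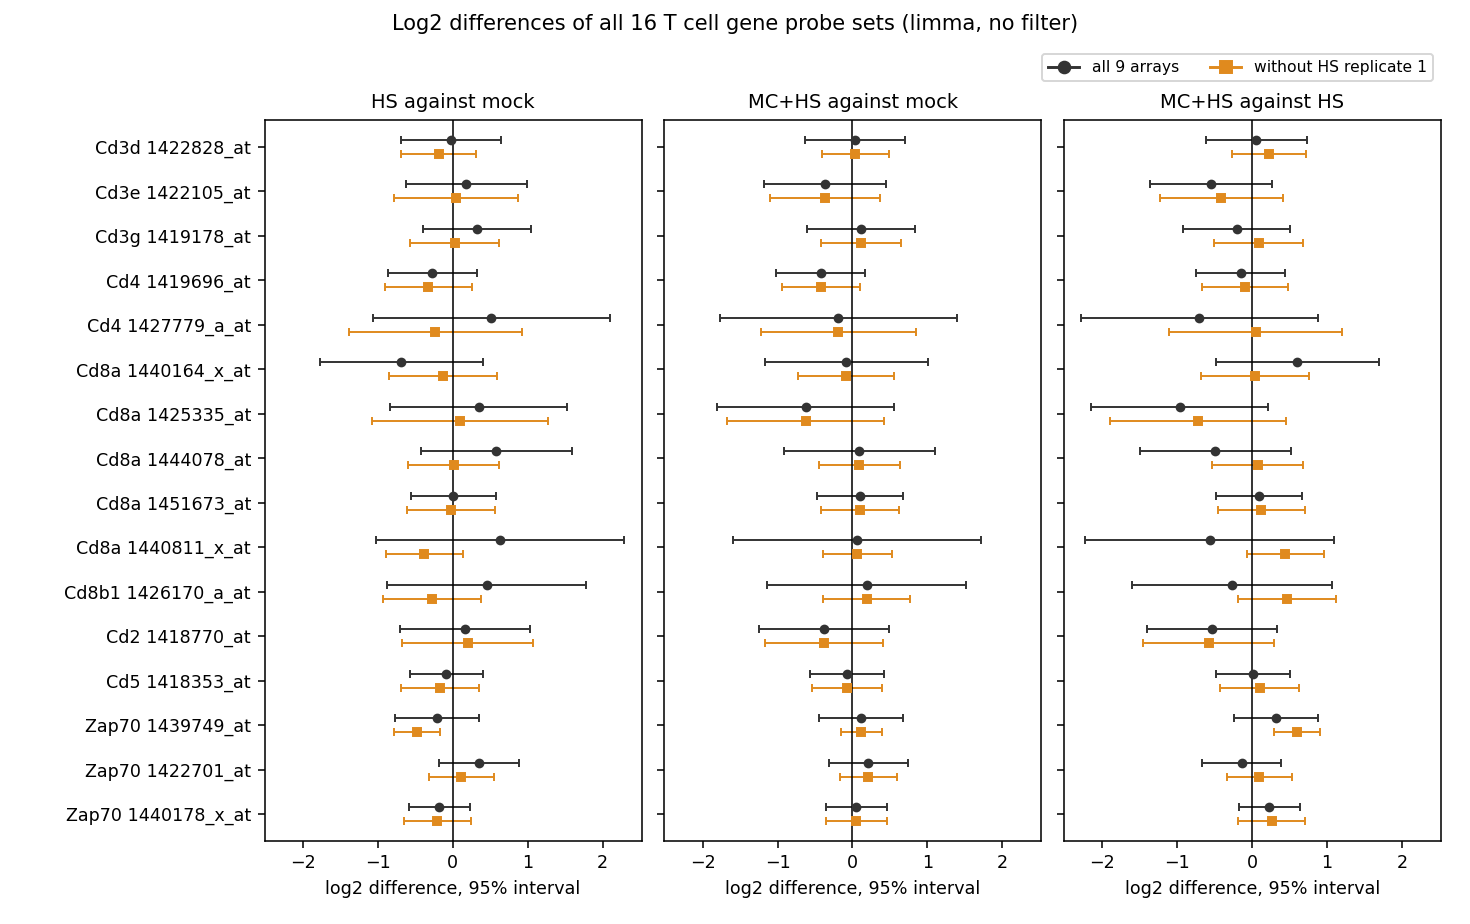
Log2 differences of all 16 probe sets with their 95% intervals (limma, no filter on dim probe sets), with 1 panel each for HS over mock, MC+HS over mock and MC+HS over HS. Dark circles are fits with all 9 arrays and orange squares fits without HS replicate 1. With all arrays every interval spans 0, and without HS replicate 1 those of Zap70 1439749_at exclude 0 in the first and last panels, at -0.48 and 0.60.

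Among other genes of the T cell receptor pathway, 1 was called in HS against mock. Of 16 symbols for receptor chains and their direct partners, 4 had a probe set (Cd247, Tcra, Trat1 and Ptcra), and none of the 4 was above background in any group or passed the filter. Among 20 signalling genes, 18 were on the array, of which 5 were above background in HS, 9 in MC+HS and 10 in mock. Of all named genes, 47.9%, 66.7% and 65.9% were. Of the 18, 13 were tested, of which 1 rose in HS against mock and 0 in MC+HS against mock. It was Lcp2, whose product SLP-76 is an adaptor in T cells and also in NK and myeloid cells. Its deposited signal was 436, 436 and 636 in HS, 366, 449 and 320.0 in MC+HS, and 143, 251 and 167 in mock, with all vector arrays above all mock arrays. Lcp2 rose 2.09-fold in HS (log2 1.07 ± 0.17; limma adjusted p = 0.0281), and in MC+HS it was 1.94-fold (0.95 ± 0.17, adjusted p = 0.0523). Without HS replicate 1, 1 of 12 tested signalling genes rose in HS against mock and 1 in MC+HS against mock. Of all 13224 genes tested then, 3.82% and 3.25% rose. Costimulation and checkpoint receptors had 6 tested of 14 on the array, and lineage regulators and cytokine receptors 8 of 18, with 0 called in either direction in all comparisons. Over all 13331 genes tested, 0.893% rose and 0.0375% fell in HS against mock.

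The zeta chain gene Cd247, which T cells and NK cells share, was below background on 8 of 9 arrays. Its deposited signal was 122, 89.4 and 99.2 in HS, 58.0, 75.5 and 78.2 in MC+HS, and 28.5, 44.6 and 54.3 in mock. All 6 vector arrays exceeded all 3 mock arrays in deposited signal. After centring, HS and mock overlapped, and both vectors together differed from mock by 0.65 ± 0.24 (log2; limma adjusted p = 0.811 without the filter).

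Some general leukocyte genes were higher in the vector arrays. Ptprc, which encodes the pan-leukocyte protein CD45 that microglia also carry, had deposited signals of 460.5, 906 and 1468 in HS, 587, 928 and 705 in MC+HS, and 163, 344 and 133 in mock. With both vectors pooled it rose 3.38-fold over mock (log2 1.76 ± 0.29; limma adjusted p = 0.0219). Of 12 general leukocyte genes tested, 3 rose in this comparison (Ptprc, Itgal and Itgb2) and 0 fell, where 1.24% of all 13331 genes rose and 0.0675% fell. Without HS replicate 1, 7 rose, where 4.73% of all genes did. Itgal, the integrin alpha chain of LFA-1 on T, NK and myeloid cells, exceeded background on just 3 of 9 arrays and on no mock array, and passed the filter through the vector arrays, so no size is given for it. The other 9 of the 12 were not called.

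NK cell genes had 10 of 12 symbols on the array, of which 2 were above background in HS, 4 in MC+HS and 1 in mock, where 47.9%, 66.7% and 65.9% of all named genes were. With both vectors pooled, 2 of 6 tested rose, where 1.24% of all genes did (3 without HS replicate 1, with Nkg7, where 4.73% did). The cytotoxic granule protease gene Gzmb was at 298, 1384 and 1939 in HS, 319.6, 1145 and 559 in MC+HS, and 11.5, 10.9 and 12.05 in mock (deposited signal), with no overlap and all mock arrays below background. Gzma, another granzyme gene, was at 509.9, 849 and 1644 in HS, 293, 669.8 and 432 in MC+HS, and 41.3, 79.8 and 35.6 in mock. Gzma, Gzmb and also Nkg7 passed the filter through the vector arrays alone, and mock gives only a bound for them. The count of NK cell genes that rose therefore leans on the filter, and the share of all genes beside it is no evidence. With each mock array set at its background, Gzmb was at least 6.37-fold higher in HS and at least 4.93-fold higher in MC+HS, and Gzma at least 6.11-fold higher in HS and at least 3.70-fold higher in MC+HS. Prf1, which encodes the pore-forming protein perforin, had deposited signals of 44.6, 172 and 276 in HS, 136, 191 and 163 in MC+HS, and 180.2, 199 and 179.7 in mock, and was not called (limma adjusted p = 0.926 with both vectors pooled). Activated cytotoxic T cells carry the same granzymes, and which cells held these transcripts was not tested.

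The summed centred signal of the 9 T cell genes, 1 probe set each, ranged from 1043 to 1470 in HS, from 1249 to 1272 in MC+HS and from 1199 to 1402 in mock. For the 10 NK cell genes it ranged from 1702 to 3103 in HS, from 1231 to 2409 in MC+HS and from 487 to 546 in mock. The T cell sums of the groups overlap. Zap70 1439749_at (group means of 516 in HS, 627 in MC+HS and 580 in mock) and Cd4 1419696_at (271, 253 and 335) make up most of the T cell sum. It therefore says little about the dimmer CD3 and CD8 genes. Gzma and Gzmb make up much of the NK cell sum, and without them it ranged from 833 to 894 in HS, from 561 to 761 in MC+HS and from 427 to 481 in mock, a sum chosen after seeing the data. The value of 894 came from HS replicate 1, on which none of these 8 genes exceeded the background of 257. B cell markers (7 on the array, 3 tested) had 0 called in the comparisons with mock. With both vectors pooled, 3 of 9 tested monocyte and macrophage genes and 2 of 5 neutrophil genes rose, where 1.24% of all genes did. Of the genes tested, S100a8 and S100a9 (neutrophils) and Ccr1, Ccr2 and Chil3 (monocytes) passed the filter through the vector arrays alone. The counts of these lists therefore lean on the filter, and the share of all genes given beside them does not make them evidence. Of 6 dendritic cell genes 1 fell, where 0.0675% of all did: Siglech, which microglia also express, was lower by a log2 difference of -0.94 ± 0.17 (limma adjusted p = 0.0437). P2ry12, a microglial receptor gene, differed by -0.87 ± 0.14 (adjusted p = 0.02); it and Prf1 were named after their values were seen.

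**Figure D4:**
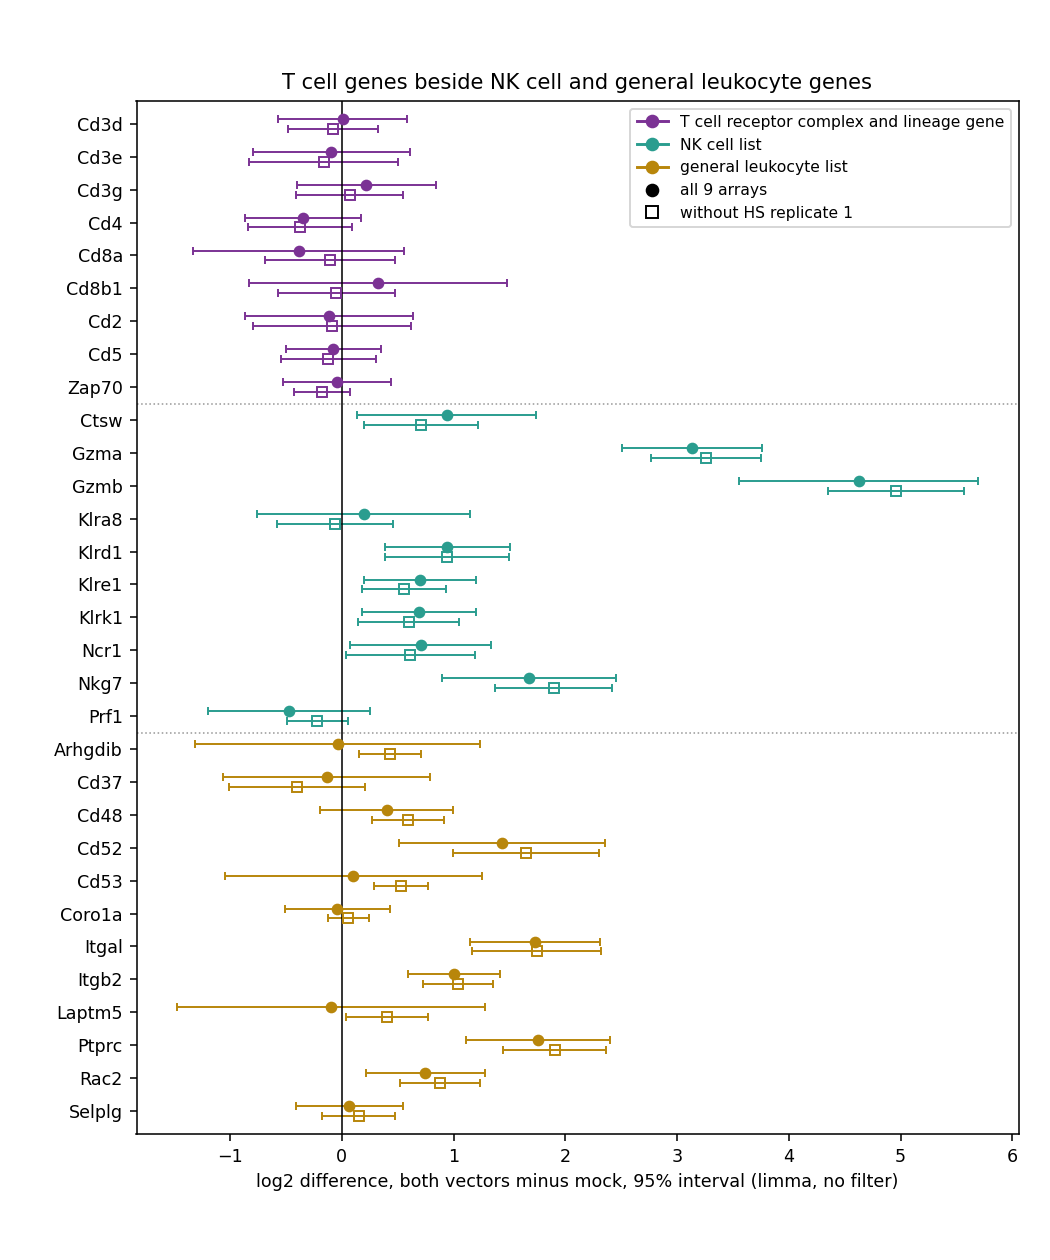
Log2 difference of both vectors together from mock, with 95% intervals (limma, no filter), for the 9 T cell genes (purple, the probe set with the highest mean) and for every gene on the array of the NK cell list (green, 10 genes) and the general leukocyte list (ochre, 12 genes), dim ones included. Filled circles use all 9 arrays and open squares leave out HS replicate 1. The intervals of the 9 T cell genes span 0, and differences of the NK cell genes range from -0.48 (Prf1) to 4.63 (Gzmb) and those of the general leukocyte genes from -0.14 (Cd37) to 1.76 (Ptprc) with all arrays. For Gzma, Gzmb, Nkg7, Itgal and other dim genes, all mock arrays lay below background. Their plotted differences, among them that of Gzmb, are therefore not measured sizes.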

How the data were processed

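Per the labels, RNA was isolated by Trizol and column purification and labelled with biotin. The deposited values are intensity on a linear scale, 1 per probe set and array, which the authors made with GCOS 1.4.0.036, as the submitters' processing notes state. Their scaling and the genome build are not given in the sources used here. Background, with no detection calls at hand, was taken from the same arrays (the 95th percentile of 83 chemosensory receptor probe sets, named Olfr, Vmn1r, Vmn2r or Tas2r).

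Values became log2(signal + 16) and were shifted so that all 9 arrays had 1 common median. "Centred signal" below is that value put back on the linear scale. The 64 control probe sets and those not above their array's 40th percentile on at least 3 arrays were left out, which left 28257 of 45101. Gene names came from platform annotation, in which 34945 probe sets had 1 symbol, 932 several and 9160 none. Of the single symbols, 34741 matched a RefSeq table of assembly GRCm38.p6 by Entrez identifier.

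Groups came from the sample titles. limma 3.58.1 (R 4.3.3, lmFit and eBayes with an intensity trend) was fitted to all 9 arrays with group as the only term. Two-sided p values underwent Benjamini-Hochberg adjustment across every probe set of a comparison, with calls at an adjusted p under 0.05. A ± gives the standard error of a log2 difference unless marked SD. Probe sets that failed the filter have a p only from the same fit without it. The code was tested on simulated data. Alternatives were other pseudocounts, filters, scalings, priors and weights, the compared arrays alone, the replicate number as a block, and leaving out each array.

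The members and gene lists were chosen with earlier results of these data known. Of the other lists, up to 3 called genes with the smallest p were to be named per comparison, or, with none called, the 1 with the smallest p. Ptprc and Cd247 could be given throughout.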

Additional observations from a re-analysis of the deposited data

How the results depend on the processing

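Over alternatives and comparisons, 83 counts of called T cell probe sets were made, of which 81 were 0. The others come from 1 alternative: with array quality weights, 2 were called in HS against mock (Zap70 1439749_at and 1440178_x_at, both lower) and 1 in MC+HS against HS (Zap70 1439749_at, higher). That fit gave HS replicate 2 a weight of 48.7, HS replicate 1 0.0148 and HS replicate 3 0.249, so its HS level rests almost on 1 array. With arrays left out in turn, the count was 0 throughout. The number of genes above background in all 3 groups was 2, also with arrays left out, and 1 with the 99th percentile as background (2 in HS, 1 in MC+HS and 2 in mock). Of 747 log2 differences of single genes, 718 kept their direction and their side of the threshold or, where untested, moved by less than the SD, and none of those that turned was called. With quantile normalization Zap70 turned to 0.15 in HS against mock, -0.064 in MC+HS against HS and 0.12 with both vectors. Without centring Cd4 and Zap70 turned to 0.028 and 0.094 in HS against mock, and Cd3e and Zap70 to 0.069 and 0.12 with both vectors. With array weights Cd3e and Cd8a turned to -0.14 and 0.028 in HS against mock, and Cd8a to 0.20 and 0.11 in MC+HS and both vectors against mock. With arrays left out, the ranges were -0.16 to 0.35 for Cd3e in HS against mock, -0.30 to 0.29 for Cd8a in MC+HS against mock, -0.43 to 0.082 for Cd4 in MC+HS against HS, and -0.44 to 0.080 for Cd3e and -0.18 to 0.076 for Zap70 with both vectors. The cause of these turns was not tested. The replicate block called 0 in every comparison. Same-numbered arrays of different groups correlated between -0.168 and 0.287 in their deviations from the group means, and differently numbered ones between -0.318 and 0.159. The 2 ranges overlap, and whether the numbers pair the mice cannot be told from so few arrays. A fit without both the filter and HS replicate 1 was chosen after seeing the data.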

Other observations

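Several dim lymphocyte genes had their highest signal on HS replicate 1. They were chosen after their values were seen. Ctla4, a checkpoint receptor of T cells, had a deposited signal of 218 on that array and between 4.14 and 28.0 on the other 8. For the B cell receptor chains, Cd79b was at 259 on it and between 1.85 and 18.04 elsewhere, and Cd79a at 94.99 and between 3.03 and 28.2. Icos, a costimulatory receptor, was at 181 there and between 24.1 and 90.3 elsewhere. Background on that array was 257, so Cd79b lay just above it and the others below. The median of the chemosensory receptor probe sets was 61.2 on it, against 18.9 to 35.6 on the others. High values on HS replicate 1 were not particular to lymphocyte genes. Elane, of the neutrophil list, was at 178 on it and between 13.3 and 42.5 elsewhere. Slc4a1, of the red blood cell list, was at 160 on it and between 4.34 and 48.3 elsewhere. Prf1 and Il2rb, by contrast, had their lowest signal there (44.6 and 48.0).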
